A study of Homo sapiens with 14 samples.

Results

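The 165 genes described here bear the symbols of ribosomal proteins, of the cytosolic or the mitochondrial ribosome of a human cell. They were chosen by symbol alone, as 87 cytosolic genes (RPL and RPS symbols followed by a number, RPLP0 to RPLP2 and RPSA) and 78 mitochondrial genes (MRPL and MRPS symbols followed by a number), among 19440 symbols in the count files. Of these, 157 had at least 20 footprint counts in total, 80 cytosolic and 77 mitochondrial, and 153 passed the filter on low counts, 79 cytosolic and 74 mitochondrial, among 9458 genes tested. RPL10L, RPL3L, RPS4Y1 and RPS4Y2 had fewer than 20 counts, and 4 members, RPS9, RPS18 and MRPS18B among them, were listed at 0 in all 14 libraries. RPL39L, MRPL23, MRPL45 and MRPS36 had 48, 51, 44 and 24 counts and were not kept by the filter.

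Cytosolic ribosomal proteins are made on free ribosomes in the cytosol and are imported into the nucleus, where they join ribosomal RNA in the nucleolus. Their messages carry a tract of pyrimidines at the 5′ end through which their translation is tuned as a group. Mitochondrial ribosomal proteins are also encoded in the nucleus and made in the cytosol, but are then imported into the mitochondrial matrix, where their ribosome makes the few hydrophobic proteins encoded on mitochondrial DNA. Neither class is made for the endoplasmic reticulum (ER), so neither is a known client of the complex captured here.

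The libraries are ribosome footprints from Flp-In T-REx 293 cells, a human embryonic kidney line, whose bait was a subunit of the EMC (ER membrane protein complex), which inserts membrane proteins, with a 3Flag tag and under a doxycycline-inducible promoter (0.5 to 1.0 ng/mL for 72 h). The groups are IP and input of the EMC6 line, which carries an EMC6 knockout and 3Flag-EMC6 (n = 2 each), IP and input of the line with 3Flag-EMC7 (n = 2 each) and IP and input of the line with 3Flag-EMC10 (n = 3 each). No knockout is named for the EMC7 and EMC10 lines. Input is the cleared lysate of nuclease-treated microsomes, and IP is what Flag beads held from it, so that all libraries, inputs included, come from a membrane fraction of cells treated with cycloheximide, which stalls ribosomes.

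Counts on genes totalled 515302 to 2248591 in IP libraries and 1692490 to 3395114 in inputs. Messages of the kidney line's markers VIM, KRT8 and KRT18 were present in every input. Of its other markers, LHX1 was at 0, NEFM had 1 count over all inputs and PAX2 had 0.319 to 4.90 CPM. ALB, PTPRC and PECAM1, of other cell types, were at 0 in all inputs. HBB reached 1.77 CPM, with 5 counts over all inputs, and COL1A1 had 2.92 to 19.1 CPM. The part of COL1A1 and HBB messages in the results was not tested. The bait's own message was higher in the IP of its line, by 7.54 ± 0.25 for EMC6, 5.71 ± 0.28 for EMC7 and 7.31 ± 0.18 for EMC10 on the log2 scale (SE). Cytosolic members had a median of 6889 counts over the 14 libraries and mitochondrial members 757, against 618 for all genes tested, and the median SE of a log2 change over the 3 lines was 0.11, 0.17 and 0.18. The counts cannot tell fewer messages in a fraction from fewer ribosomes on each message.

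The start sites of 12 members on which the results turn are shown first, because the pyrimidine tract is the sequence by which the cytosolic class is known. Each window runs from 30 bases before to 10 bases from the annotated transcript start in RefSeq (GRCh38.p14), 5′ to 3′ on the gene's strand, and the capitals mark the first 5 transcribed bases. The members are RPS27A (chr2:55231873-55231912, + strand), RPL12 (chr9:127451397-127451436, - strand), RPL41 (chr12:56116603-56116642, + strand), RPL18 (chr19:48619169-48619208, - strand), RPLP1 (chr15:69452788-69452827, + strand), RPL34 (chr4:108620546-108620585, + strand), MRPS6 (chr21:34073548-34073587, + strand), MRPL37 (chr1:54200137-54200176, + strand), MRPL32 (chr7:42932346-42932385, + strand), MRPS35 (chr12:27710802-27710841, + strand), MRPL30 (chr2:99181154-99181193, + strand) and MRPL43 (chr10:100987488-100987527, - strand).
RPS27A: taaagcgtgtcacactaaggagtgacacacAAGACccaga
RPL12: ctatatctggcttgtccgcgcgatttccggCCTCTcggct
RPL41: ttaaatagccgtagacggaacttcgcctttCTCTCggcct
RPL18: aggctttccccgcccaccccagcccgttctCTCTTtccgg
RPLP1: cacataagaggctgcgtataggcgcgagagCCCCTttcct
RPL34: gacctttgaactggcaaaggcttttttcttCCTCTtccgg
MRPS6: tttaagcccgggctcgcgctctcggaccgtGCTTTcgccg
MRPL37: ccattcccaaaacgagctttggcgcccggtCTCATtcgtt
MRPL32: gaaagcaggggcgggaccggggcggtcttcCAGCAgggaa
MRPS35: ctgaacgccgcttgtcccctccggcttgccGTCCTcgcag
MRPL30: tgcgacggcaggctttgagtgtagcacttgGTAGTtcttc
MRPL43: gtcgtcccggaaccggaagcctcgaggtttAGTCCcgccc

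Promoters were matched for 70 of 87 cytosolic and 69 of 78 mitochondrial genes. A C at the annotated start followed by 4 bases that are each C or T stood in 44 of the 70 cytosolic promoters (62.9%) and in 5 of the 69 mitochondrial ones (7.25%), against 4.04% of 27305 promoters. The letters CTTT within 10 bases of the start stood in 54.3% of cytosolic and 7.25% of mitochondrial promoters, against 9.24% of all. CCGGAAG, the core bound by ETS factors, was found on either strand in 32.9% of cytosolic and 42.0% of mitochondrial promoters, against 10.7% of all, and GCATGCGC, from the palindrome bound by NRF1, in 4.29%, 8.70% and 3.27%. RPS27A, whose annotated start lacks the tract, and RPL12, which has it, were among the members lowest in IP. Among cytosolic members tested, the median log2 change from input to IP was -0.44 in the 41 whose promoter starts with the tract. Of these, 33 fell. It was -0.48 in the 24 without the tract at the annotated start, 19 of which fell. Because only the annotated start was scored, a message that starts elsewhere may still carry the tract. The part of the tract in these changes was not tested. Over all 9458 genes tested the median was -0.19, and 26.9% fell.

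Cytosolic ribosomal protein messages were lower in IP than in input with every bait, while mitochondrial ones lay near the middle of all genes. Over the 3-line mean, 65 of 79 cytosolic members fell and none rose, and 11 of 74 mitochondrial members fell and 3 rose (edgeR's quasi-likelihood test, Benjamini-Hochberg adjusted p under 0.05). Of all 9458 genes, 26.9% fell and 23.7% rose in that comparison. The 3 that rose did so on the TMM scale, and none rose with library size alone or with scaling on ER luminal messages. The median log2 change was -0.46 in the cytosolic class and -0.21 in the mitochondrial class, against -0.19 in all genes tested, and the cytosolic class lay 0.27 below the median of all genes on the log2 scale and the mitochondrial class 0.02 below it. With the scaling used here (TMM), 71 of 79 cytosolic and 40 of 74 mitochondrial members lay below the median of all genes.

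The raw counts show the same gap between the classes without any scaling. The number of cytosolic counts for each mitochondrial count was 7.70 and 6.96 in the EMC6 IPs, against 10.5 and 9.11 in the EMC6 inputs. It was 8.55 and 8.06 in the EMC7 IPs, against 10.3 and 10.1 in the EMC7 inputs. In the EMC10 line it was 9.18, 8.53 and 8.14 in the IPs, against 10.9, 10.2 and 9.75 in the inputs. Every IP was below the input of the same line and number, and in each line all IPs were below all inputs. The highest IP of the EMC10 line nevertheless exceeded the lowest input of the EMC6 line. Cytosolic members took 0.887% to 1.94% of the counts in IPs, against 2.52% to 4.14% in inputs. Mitochondrial members took 0.106% to 0.252% in IPs, against 0.245% to 0.395% in inputs. These shares also carry the weight of the bait message, and without the bait rows the cytosolic share was 1.12% to 1.95% in IPs and 2.53% to 4.14% in inputs.

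In each of the 7 pairs of IP and input with the same line and number, the median cytosolic log2 change lay below the median mitochondrial one. The difference averaged -0.25 ± 0.08 (SD, 7 pairs) and ran from -0.37 in EMC6 pair 1 to -0.16 in EMC10 pair 2. Against all genes, the cytosolic median was lower by 0.31 ± 0.04 (SD) and in 7 of 7 pairs, and the mitochondrial median differed by -0.06 ± 0.06 and lay below in 6 of 7 pairs. Counting single members, 61 of 79 cytosolic genes had less in IP than in input in all 7 pairs, against 7 of 74 mitochondrial genes and 20% of all genes. None of the cytosolic members and 1 mitochondrial member had more in IP in all 7 pairs, against 21.1% of all genes.

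**Figure D1:**
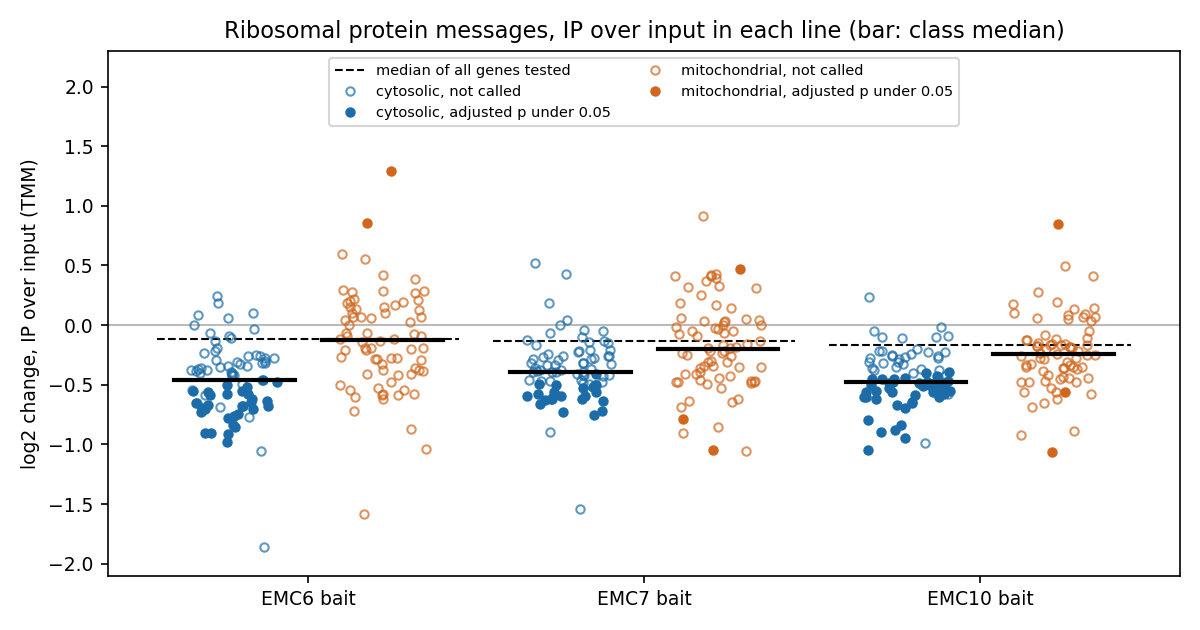
Log2 change from input to IP (vertical axis, TMM scaling) of 79 cytosolic (blue) and 74 mitochondrial (orange) ribosomal protein genes in the EMC6, EMC7 and EMC10 lines; filled points have an adjusted p under 0.05, thick bars are class medians and dashed lines the median of all 9458 genes. In each line the cytosolic bar lies below the dashed line and the mitochondrial bar lies near it.

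The cytosolic members also fell in each line taken alone, in numbers whose order between the lines changed with the scaling and the tool. In the EMC6 line 31 of 79 fell, where 9.27% of all genes fell and 17.6% rose. In the EMC7 line 23 fell, where 9.68% of all genes fell and 20.4% rose, and in the EMC10 line 45 fell, where 13.9% fell and 19.9% rose. No cytosolic member rose in any line. The class median relative to all genes was -0.34, -0.25 and -0.31 in the EMC6, EMC7 and EMC10 lines, and 70 of 79 cytosolic members had a negative change in all 3 lines. The EMC6 value turned on single libraries: it was -0.14 without EMC6 input replicate 1, -0.16 without EMC6 IP replicate 2, -0.51 without EMC6 IP replicate 1 and -0.58 without EMC6 input replicate 2. With IP and input of the same number treated as pairs, 55, 55 and 68 cytosolic members fell in the EMC6, EMC7 and EMC10 lines, where 13.3%, 15.3% and 18.9% of all genes fell.

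Single libraries decided much of the count in the lines with 2 replicates. Without EMC6 input replicate 1 only 4 cytosolic members fell in the EMC6 line, and without EMC6 IP replicate 2 only 2 did. In the EMC7 line 12 fell without input replicate 1, 6 without IP replicate 1, 7 without input replicate 2, 10 without IP replicate 2 and 39 without EMC6 input replicate 2. In the EMC10 line 29 fell without input replicate 1 or without IP replicate 3. Over the 3-line mean 53 to 68 fell whichever library was left out.

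16 of 79 cytosolic members fell in each of the 3 lines, as did 4.03% of all genes. These were RPL5 and RPL11, which carry the 5S RNA into the large subunit, RPL12, at the base of the stalk, RPL23A, beside the exit of the peptide tunnel, and RPL6, RPL7, RPL7A, RPL8, RPL17 and RPL32, also of the large subunit. From the small subunit came RPS27A, RPS6, whose protein is phosphorylated by the S6 kinases, and RPS4X, RPS7, RPS12 and RPS24. Which members make this list depends on single libraries, as the counts in the EMC6 and EMC7 lines given above did. Over the mean of lines, 43 of 50 large subunit members fell, with a median of -0.47, and 22 of 29 small subunit members fell, with a median of -0.39.

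RPS27A, made as a fusion of ubiquitin with a small subunit protein, was among the lowest. It had 91.6 and 69.0 CPM (counts scaled to library size, as CPM after TMM) in the EMC6 IPs, against 181 and 130.0 CPM in the EMC6 inputs. It had 77.7 and 97.1 CPM in the EMC7 IPs, against 134 and 139.9 CPM in the EMC7 inputs, and 79.5, 74.4 and 64.0 CPM in the EMC10 IPs, against 148, 135 and 135 CPM in the EMC10 inputs. All 7 IPs were below all 7 inputs. The log2 change was -0.98 ± 0.21, -0.66 ± 0.20 and -0.94 ± 0.17 in the 3 lines (SE) and -0.86 ± 0.11 over their mean (edgeR adjusted p = 3.51e-08).

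RPL12 showed the same separation. It had 50.5 and 58.1 CPM in the EMC6 IPs, against 112 and 86.9 CPM in the EMC6 inputs, and 65.4 and 67.9 CPM in the EMC7 IPs, against 103 and 118 CPM in the EMC7 inputs. In the EMC10 line it had 69.9, 51.1 and 64.0 CPM in the IPs, against 115, 115 and 108 CPM in the inputs. Its 7 IPs also lay below all 7 inputs, and the change was -0.82 ± 0.11 over the mean of lines (edgeR adjusted p = 1.10e-07). RPL23A, next to the site where the signal recognition particle and the translocon dock, changed by -0.74 ± 0.11 (edgeR adjusted p = 3.92e-07). RPL21, another large subunit protein, changed by -0.84 ± 0.22 (edgeR adjusted p = 0.00234) and passed the test in no single line. The lowest value of the class belonged to RPL22L1, a paralog of RPL22, at -1.46 ± 0.56 (edgeR adjusted p = 0.0275), but it rests on 104 counts in all and missed the threshold with DESeq2.

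Messages of the stalk proteins, which recruit the translational GTPases, were lower in IP too. RPLP1 lay near the class median of -0.46, while RPLP0 and RPLP2 lay between it and the median of all genes, -0.19. RPLP1 had 179 and 134 CPM in the EMC6 IPs, against 231 and 193 CPM in the EMC6 inputs. In the EMC7 line RPLP1 had 288 and 380.2 CPM in the IPs, against 400.4 and 521 CPM in the inputs, and in the EMC10 line 299.9, 275 and 358 CPM in the IPs, against 459, 407 and 497 CPM in the inputs. IPs and inputs did not overlap within any line, and RPLP1 changed by -0.49 ± 0.11 over the mean of lines. RPLP0 changed by -0.30 ± 0.10 and RPLP2 by -0.25 ± 0.10, and each of the 3 stalk genes passed the test over the mean (edgeR adjusted p = 0.000188, 0.0134 and 0.0376 for RPLP1, RPLP0 and RPLP2). RPSA, a small subunit protein also known as the laminin receptor precursor, fell by 0.58 ± 0.14 on the log2 scale (edgeR adjusted p = 0.000813).

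The other 14 cytosolic members tested did not pass the test over the mean of lines. They included RPL15, RPL18, RPL28, RPL36, RPL39 and RPL41 of the large subunit and RPS14, RPS21, RPS26, RPS27, RPS27L, RPS28 and RPS29 of the small subunit. RPL41, one of the smallest proteins known, had 80.4 and 99.7 CPM in the EMC6 IPs, against 95.1 and 92.0 CPM in the EMC6 inputs. It had 86.3 and 112 CPM in the EMC7 IPs, against 54.7 and 82.7 CPM in the EMC7 inputs, and 87.9, 105 and 107 CPM in the EMC10 IPs, against 91.8, 87.9 and 76.1 CPM in the EMC10 inputs. Both EMC7 IPs were above both EMC7 inputs, and IPs and inputs overlapped in the other lines. The change of RPL41 was 0.24 ± 0.11, the highest of the class (edgeR adjusted p = 0.0777), and with IP and input paired it was 0.25 ± 0.08 (edgeR adjusted p = 0.00513). It was -0.71 with library size alone as scaling and -0.28 with scaling on ER luminal messages.

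RPL18, a large subunit protein, had 419 and 473 CPM in the EMC6 IPs, against 408 and 377 CPM in the EMC6 inputs. It had 534 and 512 CPM in the EMC7 IPs, against 536 and 539 CPM in the EMC7 inputs, and 481, 526 and 495 CPM in the EMC10 IPs, against 548, 541 and 524 CPM in the EMC10 inputs. The IPs were above the inputs in the EMC6 line, below them in the EMC7 line and overlapped them in the EMC10 line. RPL18, RPS28, RPS27 and RPS21 were named because their changes over the mean of lines were among the highest of the class. Their intervals thus cannot test a departure from the class median of -0.46, because this choice already favours values above it. RPL18 had a log2 change of 0.02 ± 0.09 over the mean of lines, with a 95% interval of -0.15 to 0.18. RPS28 had 0.13 ± 0.12, RPS27, a zinc finger protein, -0.03 ± 0.12 and RPS21 -0.10 ± 0.10, with intervals of -0.11 to 0.37, -0.27 to 0.21 and -0.29 to 0.09. These values are on the TMM scale, and those of RPL18 and RPS28 were negative with library size alone (-0.93 and -0.82) and with scaling on ER luminal messages (-0.50 and -0.38).

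**Figure D2:**
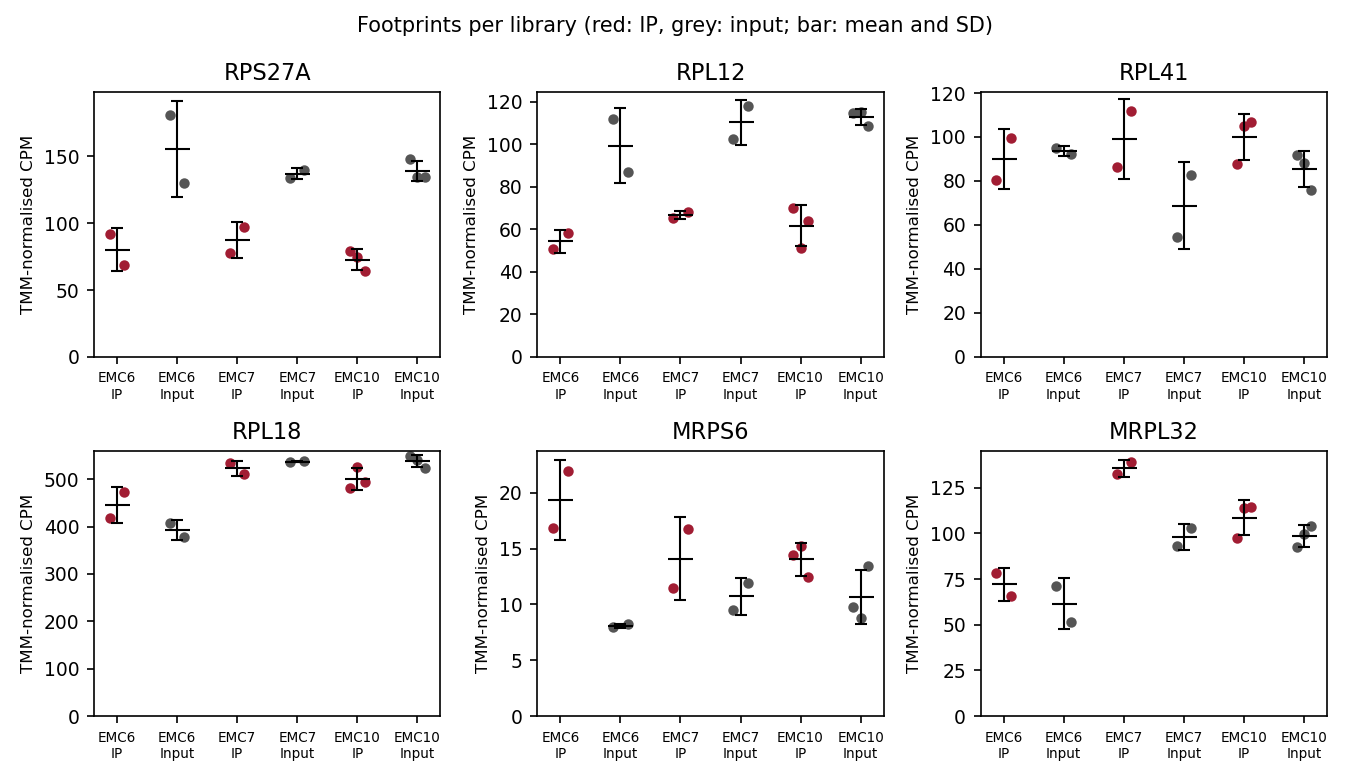
TMM-normalised CPM (vertical axes from 0) of RPS27A, RPL12, RPL41, RPL18, MRPS6 and MRPL32 in each library, IP (red) left of input (grey) in each line, with the mean and SD as bars. The RPS27A and RPL12 IPs lie below all inputs, both EMC7 IPs of RPL41 and both EMC6 IPs of RPL18 lie above the inputs of their line, and MRPS6 IPs lie above the inputs of their own line in the EMC6 line.

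Mitochondrial ribosomal protein messages spread on both sides of the median of all genes. In the EMC6 line 2 rose, MRPS6 and MRPL36, and none fell. In the EMC7 line MRPL32 rose and MRPL48 and MRPS35 fell, and in the EMC10 line MRPL57 rose and MRPL30 and MRPS26 fell, and no mitochondrial member was called in more than 1 line. MRPL36, MRPL48 and MRPS26 are named because of these calls, after their values were seen. The shares of all genes that fell or rose in these lines, given above, were larger than those of the mitochondrial members. In single lines these calls were lost without any 1 of several libraries: 0 rose in the EMC6 line without EMC6 IP replicate 2 and 1 without EMC6 input replicate 2, where 2 fell, 0 rose in the EMC7 line without any 1 of 10 libraries and 0 fell there without EMC7 IP replicate 1, and 0 to 1 rose and 0 to 3 fell in the EMC10 line when an EMC10 library was left out. A negative change in all 3 lines was seen for 32 of 74, against 70 of 79 cytosolic members. Of 47 members with MRPL symbols 8 fell and 2 rose over the mean of lines, with a median of -0.25. Of 27 members with MRPS symbols 3 fell and 1 rose, with a median of -0.15. This split is by symbol alone.

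MRPS6, a small subunit protein of bacterial descent, had the highest change. It had 16.8 and 21.9 CPM in the EMC6 IPs, against 7.96 and 8.21 CPM in the EMC6 inputs. It had 11.5 and 16.7 CPM in the EMC7 IPs, against 9.54 and 11.9 CPM in the EMC7 inputs, and 14.5, 15.2 and 12.4 CPM in the EMC10 IPs, against 9.74, 8.79 and 13.4 CPM in the EMC10 inputs. Only the EMC6 IPs stood clear of their inputs, and the change was 1.29 ± 0.38 there (edgeR adjusted p = 0.00972) and 0.69 ± 0.19 over the mean of lines (edgeR adjusted p = 0.00325). MRPS6 rests on 359 counts, and its locus, chr21:34073578-34143030 in GRCh38, contains all of SLC5A3, a multi-pass inositol transporter at chr21:34073578-34106260. SLC5A3 had 15877 counts, 17.7 to 143 times those of MRPS6 in single libraries, and rose by 2.47 ± 0.10 over the mean of lines (edgeR adjusted p = 1.40e-22). The part of SLC5A3 reads in the MRPS6 value was not tested.

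MRPL32, a large subunit protein that is cut to its mature form by an inner membrane protease, had 78.5 and 65.7 CPM in the EMC6 IPs, against 71.2 and 51.7 CPM in the EMC6 inputs. It had 132 and 139 CPM in the EMC7 IPs, against 93.1 and 103 CPM in the EMC7 inputs, and 97.6, 114 and 115 CPM in the EMC10 IPs, against 92.3, 99.6 and 104 CPM in the EMC10 inputs. Its IPs were clear of the inputs in the EMC7 line and overlapped them in the others. The change was 0.47 ± 0.18 in the EMC7 line and 0.28 ± 0.11 over the mean of lines (edgeR adjusted p = 0.0497 and 0.033). MRPL37, a large subunit protein found in mitochondria only, had 80.4 and 47.1 CPM in the EMC6 IPs, against 50.6 and 48.6 CPM in the EMC6 inputs. In the EMC7 line MRPL37 had 60.4 and 58.5 CPM in the IPs, against 46.3 and 48.9 CPM in the inputs, and in the EMC10 line 53.0, 66.3 and 63.1 CPM in the IPs, against 50.3, 46.2 and 54.9 CPM in the inputs. For MRPL37 the IPs were above the inputs in the EMC7 line and overlapped them in the others. The 3 lines gave near equal changes, 0.30 ± 0.23, 0.32 ± 0.21 and 0.28 ± 0.17, and the test passed over their mean, 0.30 ± 0.12 (edgeR adjusted p = 0.034), though in no single line. Without EMC6 IP replicate 1, EMC7 input replicate 1, either EMC7 IP, or EMC10 IP replicate 2 or 3, 1 mitochondrial member rose over the mean of lines in place of 3. With all libraries and the filter on low counts used here, MRPL32 and MRPL37 passed upward with TMM and with DESeq2. With TMM they passed close to the threshold. Their values were -0.67 and -0.65 with library size alone and -0.24 and -0.21 with scaling on ER luminal messages. For MRPS6 these 2 scalings gave -0.26 and 0.18.

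MRPL36, of the large subunit, was called in the EMC6 line only. It had 48.6 and 42.7 CPM in the EMC6 IPs, against 31.5 and 18.5 CPM in the EMC6 inputs, and changed by 0.86 ± 0.29 (edgeR adjusted p = 0.0239). In the EMC10 line MRPL36 had 12.0, 21.5 and 20.1 CPM in the IPs, against 21.8, 25.3 and 20.9 CPM in the inputs, with a value of -0.31 ± 0.26 that did not pass. MRPL57 had 10.8, 28.7 and 21.97 CPM in the EMC10 IPs, against 12.3, 11.2 and 11.8 CPM in the EMC10 inputs, and changed there by 0.85 ± 0.29 (edgeR adjusted p = 0.0199). One EMC10 IP of MRPL57 lay below all EMC10 inputs and the others far above them.

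The 11 mitochondrial members that fell over the mean of lines were MRPL12, MRPL15, MRPL18, MRPL27, MRPL30, MRPL39, MRPL42 and MRPL48 of the large subunit and MRPS23, MRPS31 and MRPS35 of the small subunit. MRPS35 had 29.9 and 21.9 CPM in the EMC6 IPs, against 41.6 and 33.5 CPM in the EMC6 inputs. It had 22.3 and 17.8 CPM in the EMC7 IPs, against 35.4 and 34.7 CPM in the EMC7 inputs, and 28.9, 17.0 and 26.8 CPM in the EMC10 IPs, against 35.5, 34.7 and 32.7 CPM in the EMC10 inputs. All 7 IPs of MRPS35 were below all 7 inputs, and it changed by -0.63 ± 0.15 (edgeR adjusted p = 0.000437). MRPL30 changed by -0.70 ± 0.21 and MRPL27, whose bacterial counterpart reaches towards the peptidyl transferase centre, by -0.65 ± 0.21 (edgeR adjusted p = 0.00616 and 0.0099). MRPL34 and MRPL1 had values as low, -0.71 ± 0.33 and -0.66 ± 0.32, but did not pass (edgeR adjusted p = 0.0738 and 0.0813), and MRPL53 had 0.42 ± 0.30 with adjusted p = 0.241 in the same edgeR test. Without EMC6 input replicate 1 only 4 mitochondrial members fell, without EMC6 IP replicate 2 only 6, without EMC7 input replicate 2 only 5, and DESeq2 called 2.

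Lists of genes whose products act beside each ribosome were set next to the classes, over the 3-line mean. There 26.9% of all genes fell and 23.7% rose, and the median of all genes was -0.19. Of 49 cytosolic translation factors 38 fell and none rose, with a median of -0.53, and of 52 ribosome assembly factors and nascent chain chaperones 27 fell and 1 rose, with a median of -0.39. Of 31 mitochondrial translation and assembly factors 5 fell and 2 rose, with a median of -0.17. Of 54 enzymes and chaperones of the mitochondrial matrix 24 fell and 2 rose, with a median of -0.20. At the other end, 152 of 154 multi-pass solute carriers rose, with a median of 2.42, and 40 of 64 ER luminal proteins rose, with a median of 0.46.

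Ribosomal proteins whose symbols fall outside the rule gave further values. FAU, a fusion with a ubiquitin-like domain, and RACK1, a signalling scaffold on the small subunit, had changes of -0.12 ± 0.10 and -0.18 ± 0.09 and did not pass. Among mitochondrial small subunit proteins, PTCD3, an RNA-binding protein, changed by -0.43 ± 0.12 (edgeR adjusted p = 0.00353), and DAP3, AURKAIP1 and CHCHD1 of the small subunit and GADD45GIP1 of the large one had values of -0.15 to -0.08 that did not pass.

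**Figure D3:**
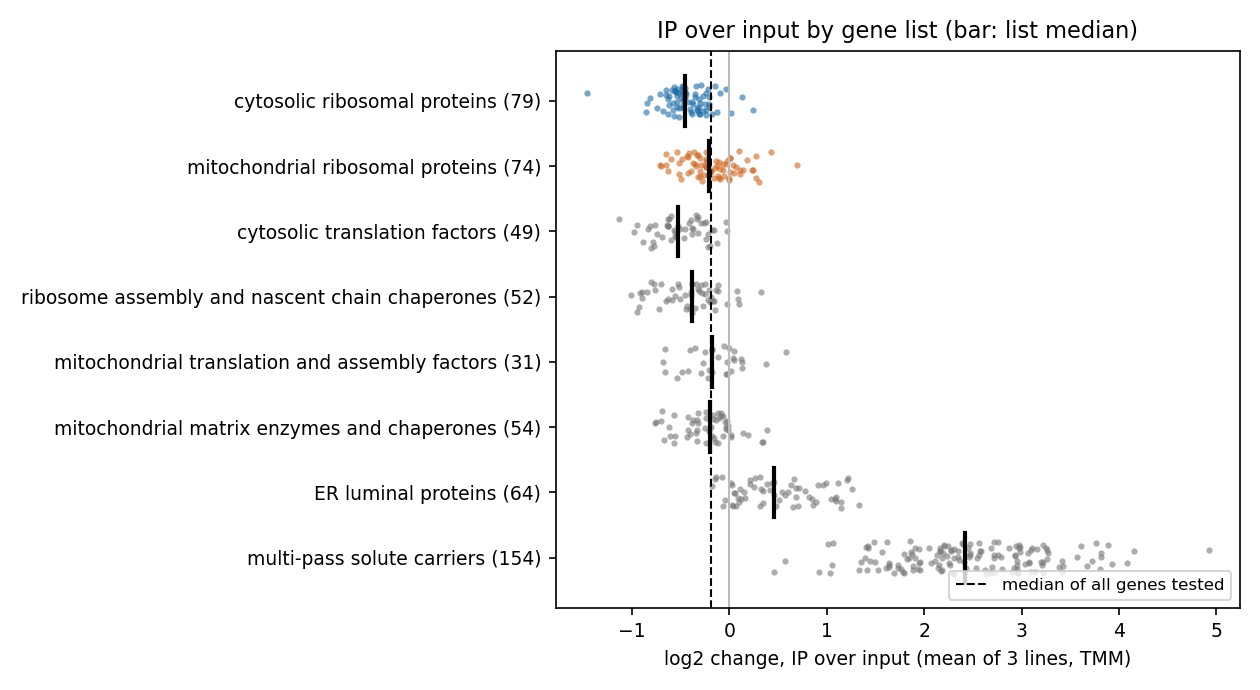
Log2 change from input to IP over the 3-line mean (horizontal axis, TMM scaling) for each gene of 8 lists, with the number of genes tested in brackets, black bars for the list medians and a dashed line for the median of all 9458 genes. Cytosolic ribosomal proteins centre on -0.46, mitochondrial ribosomal proteins on -0.21 and solute carriers on 2.42.

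None of the 153 members was called between baits in its change from input to IP. For EMC6 minus EMC7 0 members were called, where 0.19% of all genes were higher and 0.328% lower, and 1 cytosolic and 1 mitochondrial member were lower at an unadjusted p under 0.05. For EMC6 minus EMC10 0 were called, where 0.0634% of all genes were higher and 0.0106% lower, and 1 cytosolic and 3 mitochondrial members were higher at that level. For EMC7 minus EMC10 0 were called, where 0.148% and 0.0106% were, and 3 mitochondrial members were higher and 1 lower at that level. DESeq2 also called 0 members in each. These differences had median SEs of 0.25 to 0.28 for cytosolic and 0.38 to 0.43 for mitochondrial members.

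With IP and input paired, 3 members were called between baits, where 3.49% of all genes were lower for EMC6 minus EMC7 and 0.349% lower and 1.88% higher for EMC6 minus EMC10. The change of RPS15A, a small subunit protein, was lower with EMC6 than with EMC7 by 0.57 ± 0.18 on the log2 scale (edgeR adjusted p = 0.0341), that of RPL26 was lower with EMC6 than with EMC10 by 0.43 ± 0.13 (edgeR adjusted p = 0.0354), and that of MRPL36 was higher with EMC6 than with EMC10 by 1.25 ± 0.34 (edgeR adjusted p = 0.0183). RPS15A had 99.1 and 82.2 CPM in the EMC6 IPs, against 185 and 106 CPM in the EMC6 inputs, and 186 and 207 CPM in the EMC7 IPs, against 194 and 212 CPM in the EMC7 inputs. The EMC6 IPs of RPS15A lay below their inputs and the EMC7 IPs overlapped theirs.

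The inputs set the EMC6 line apart from the other lines over genes at large, and members of both classes moved each way. With all libraries, members of each class were called higher about as often as all genes and lower less often. These calls are thus not particular to the ribosomal classes. Against the mean of the EMC7 and EMC10 inputs, 14 cytosolic members were higher and 12 lower in EMC6 inputs, and 13 mitochondrial members were higher and 4 lower, where 15.3% of all genes were higher and 21.8% lower. Class medians were 0.15 and 0.17 on the log2 scale, against 0.07 for all genes. Both EMC6 inputs lay above all 5 other inputs for 18 cytosolic and 22 mitochondrial members, against 24.2% of all genes, and below them for 14 and 6, against 25% of all genes. Of the large subunit, 11 cytosolic members were higher and 4 lower, and of the small subunit 3 were higher and 8 lower.

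Cytosolic members higher in EMC6 inputs included RPL34, RPL26, RPL7L1 and RPL24. RPL34 had 179 and 126 CPM in the EMC6 inputs, against 78.2 and 87.8 CPM in the EMC7 inputs and 83.7, 76.1 and 75.8 CPM in the EMC10 inputs. Both EMC6 values of RPL34 stood above all others, and the difference was 0.91 ± 0.15 (edgeR adjusted p = 7.07e-06). RPL26, at the tunnel exit, had 632 and 477 CPM in the EMC6 inputs, against 318 and 333 CPM in the EMC7 inputs and 326, 316 and 272 CPM in the EMC10 inputs, again without overlap, a difference of 0.82 ± 0.14 (edgeR adjusted p = 1.55e-05). RPL7L1, a paralog of RPL7 that acts in ribosome assembly, differed by 0.78 ± 0.15 and RPL24 by 0.70 ± 0.15.

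Cytosolic members lower in EMC6 inputs were led by RPLP1 and RPS28 on the TMM scale, while with scaling on ER luminal messages their values were 0.030 and 0.12. RPLP1 had 231 and 193 CPM in the EMC6 inputs, against 400.4 and 521 CPM in the EMC7 inputs and 459, 407 and 497 CPM in the EMC10 inputs, a difference of -1.11 ± 0.16 (edgeR adjusted p = 1.48e-06). RPS28 had 49.5 and 40.4 CPM in the EMC6 inputs, against 74.2 and 93.6 CPM in the EMC7 inputs and 109, 90.8 and 93.2 CPM in the EMC10 inputs, a difference of -1.01 ± 0.18 (edgeR adjusted p = 1.95e-05). For both genes the EMC6 inputs lay below all other inputs. RPS12, RPL37A and RPS29, also called lower, differed by -0.84 ± 0.18, -0.84 ± 0.15 and -0.60 ± 0.18.

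Mitochondrial members differed by as much. MRPL30 had 23.9 and 26.7 CPM in the EMC6 inputs, against 7.45 and 9.97 CPM in the EMC7 inputs and 13.0, 13.0 and 9.64 CPM in the EMC10 inputs, a difference of 1.32 ± 0.21 (edgeR adjusted p = 4.00e-06). MRPL34, MRPL27 and MRPS31 differed by 1.29 ± 0.30, 1.08 ± 0.21 and 1.03 ± 0.19. The 4 lower members, none of them lower with scaling on ER luminal messages, were MRPL43, MRPL32, MRPL4 and MRPL14, at -1.01 ± 0.22, -0.68 ± 0.16, -0.60 ± 0.17 and -0.50 ± 0.17. MRPL43 had 12.3 and 16.4 CPM in the EMC6 inputs, against 31.9 and 21.9 CPM in the EMC7 inputs and 31.3, 29.9 and 32.4 CPM in the EMC10 inputs, without overlap.

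Taken line by line, 11 cytosolic members were higher and 11 lower in EMC6 than in EMC7 inputs (10.4% and 19.9% of all genes), and 11 were higher and 12 lower in EMC6 than in EMC10 inputs (12.5% and 20.4% of all genes). For mitochondrial members these counts were 9 and 4 against EMC7 and 12 and 3 against EMC10. Those called against both lines were 10 higher and 11 lower cytosolic members and 7 higher and 3 lower mitochondrial members, against 8.16% higher and 18.6% lower of all genes, and these comparisons share the EMC6 inputs. Against EMC7 inputs the higher cytosolic members numbered 2 and 24 without EMC6 input replicate 1 and 2, and 3 and 7 without EMC7 input replicate 1 and 2, and the lower ones 17, 7, 6 and 6. Against EMC10 inputs the higher ones numbered 3 and 23 without EMC6 input replicate 1 and 2 and 6 without EMC10 input replicate 2 or 3, and the lower ones 6 without EMC6 input replicate 2. Without EMC6 input replicate 1, 5 mitochondrial members were higher and 2 lower against EMC7 and 6 were higher against EMC10. Between EMC7 and EMC10 inputs edgeR called 0 members (0.0106% of all genes each way), DESeq2 called 0, and at an unadjusted p under 0.05 0 cytosolic and 2 mitochondrial members passed, both lower in EMC7.

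The 2 EMC6 inputs differed from each other in the whole cytosolic class. All 79 cytosolic members were higher in EMC6 input replicate 1 than in replicate 2, with a median log2 difference of 0.46, and in the EMC6 IPs 70 of 79 were, with a median of 0.41. Mitochondrial members were higher in replicate 1 for 56 of 74 in the inputs and 50 of 74 in the IPs, with medians of 0.20 and 0.26, against -0.05 and -0.03 over all genes. Against the mean of the other inputs the cytosolic median was 0.35 in replicate 1 and -0.14 in replicate 2. Without EMC6 input replicate 1 only 3 cytosolic members were higher and 19 lower in EMC6 inputs, and without replicate 2 26 were higher and 6 lower; 8 mitochondrial members were higher without replicate 1. The cytosolic median of EMC6 inputs against the others, 0.15 with all libraries, was -0.16 without replicate 1, 0.30 without replicate 2 and 0.083 without EMC7 input replicate 1, and the mitochondrial median, 0.17, was -0.0072 without replicate 1. In the other lines the median difference of a class between replicates ran from -0.13 to 0.12.

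Other measures moved with the EMC6 inputs. Rows that name no gene took 9.28% to 12.5% of counts in the EMC6 line, against 2.76% to 5.15% in the other lines. ER luminal messages were lower in EMC6 inputs for 60 of 64 genes, with a median of -0.999, and 96 of 154 solute carriers were lower, with a median of -0.85. Scaled on ER luminal messages, 73 cytosolic and 72 mitochondrial members were higher in EMC6 inputs and none was lower, where 77.4% of all genes were higher and 1.71% lower. The part of these in the differences between inputs was not tested, and the knockout and the bait of the EMC6 line cannot be told apart.

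**Figure D4:**
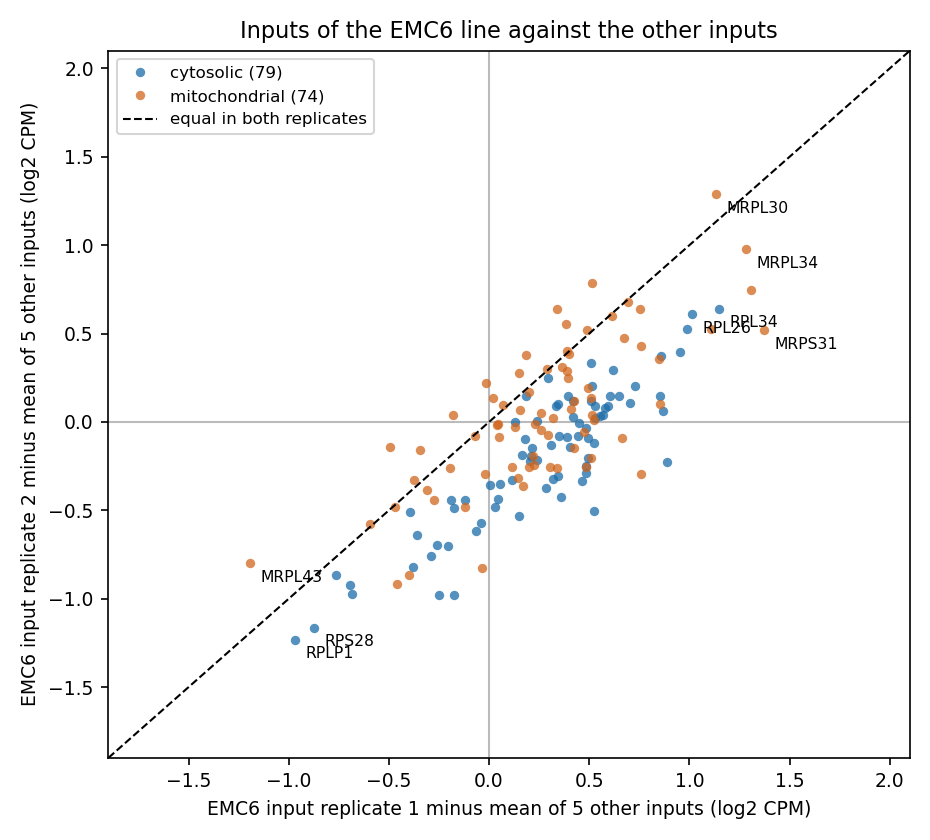
Log2 CPM of EMC6 input replicate 1 (horizontal axis) and replicate 2 (vertical axis), each minus the mean log2 CPM of the 5 inputs of the other lines, for 79 cytosolic (blue) and 74 mitochondrial (orange) members; the dashed line marks equal values in both replicates. All cytosolic points lie to the right of and below the dashed line.

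Paralogs were set beside their parents because near-identical copies can exchange reads. RPL7L1 had 2360 counts, against 10045 for RPL7, RPL22L1 104, against 4925 for RPL22, RPL26L1 732, against 11229 for RPL26, RPL36AL 1102, against 8001 for RPL36A, and RPS27L 364, against 1906 for RPS27. From input to IP, RPL7L1 changed by -0.58 ± 0.12 and RPL7 by -0.65 ± 0.11. RPL26L1 changed by -0.52 ± 0.20 and RPL26 by -0.44 ± 0.10, and RPL36AL by -0.48 ± 0.15 and RPL36A by -0.27 ± 0.10. RPS27L had -0.15 ± 0.25 and RPS27 -0.03 ± 0.12, and RPL22 had -0.46 ± 0.12, with the value of RPL22L1 given above. No difference within a pair was tested. RPL3 changed by -0.46 ± 0.10, RPL10 by -0.38 ± 0.10, and RPS4X by -0.56 ± 0.09, RPL39 had -0.24 ± 0.14, which did not pass, and their paralogs RPL3L, RPL10L, RPS4Y1, RPS4Y2 and RPL39L were too low to test. Many members also have processed pseudogenes, and how multiply aligned reads were handled is not given in the sources used here, and values of single cytosolic members are thus less certain than their counting error.

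Overlapping genes add a further limit. 31 members overlap another coding gene in RefSeq, on either strand, and whether counting used strand is not given in the sources used here. Readthrough genes that contain a member carried nearly the same counts as the member: RPL17-C18orf32 had 0.986 to 1.08 times those of RPL17, RPL36A-HNRNPH2 0.907 to 1.00 times those of RPL36A, and RPS10-NUDT3 0.942 to 1.01 times those of RPS10 in single libraries. Several overlapping genes encode membrane proteins that rose in IP while the member did not pass the test upward. Examples are TMEM63B at 2.84 ± 0.10 beside MRPL14 at 0.10 ± 0.13, SYVN1 at 2.35 ± 0.11 beside MRPL49 at -0.29 and TLCD1 at 1.66 ± 0.12 beside RPL23A. These genes overlap only an end of the member, whereas SLC5A3 lies wholly within MRPS6. The part of overlapping genes in the values of members was not tested.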

How the data were processed

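Footprints were sequenced from 14 libraries of doxycycline-induced Flp-In T-REx 293 cells, as input and Flag IP of 3 lines. The authors deposited whole-number counts per gene symbol, 1 file per library and not normalized. The submitters' processing notes name hg38 as the build and TopHat2 2.1.0, Bowtie2 2.2.6 and cutadapt 4.1 as tools, while the handling of strand, of multiply aligned reads and of the random bases in the primers is not given in the sources used here. The 5 rows that name no gene, 2.76% to 12.5% of counts, entered neither library sizes nor tests, and the row for reads without a unique alignment was 0 in every file.

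The fit used R 4.3.3 with edgeR 4.0.16 and limma 3.58.1 on the 14 libraries at once, with 1 mean for each of 6 groups of line and fraction, TMM scaling and filterByExpr. Its robust quasi-likelihood test was adjusted over 9458 genes (Benjamini-Hochberg, at 0.05). A log2 change is tested on the TMM scale, on which the median of all genes was not 0, so class medians are also given relative to it. Comparisons were IP against input per line and averaged over lines, the contrasts of these changes from bait to bait, and inputs between lines. Median changes over a class and lists are descriptions without a test. CPM values are TMM-normalised, and pair values used log2 CPM with a prior count of 2. Alternatives were DESeq2 1.42.0, library size alone, scaling on ER luminal messages, other filters on low counts, leaving out bait rows, a replicate block and each library left out. The steps were also run on simulated counts with as many genes raised as lowered in IP. Those counts held no broad enrichment like that of the real IPs, so they cannot test the scaling. Intervals cover the spread between libraries, and the number of counts limits low members, the mitochondrial class most.

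The members, gene lists and rules were chosen with earlier results of these data known. Named members were, per class, the 5 highest and 5 lowest changes from input to IP over the mean of the lines, members called against the direction of most of their class, the 4 highest and 4 lowest called between inputs (up to 6 in the rarer direction), members called between baits, and paralogs with their parents, stalk proteins and RPSA. A further part of the rule, the highest levels per coding length, was not applied because no coding lengths were at hand, so levels were not compared between genes. A few genes that the rules or lists would name are not reported here. Positions, overlaps and promoters came from RefSeq (GRCh38.p14), to which 164 of 165 members matched by symbol, and promoters were found for 139.

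The labels give the groups and the replicate numbers but name no separate cultures, and the spread behind the p-values may be technical. No pair of replicates agreed within sampling noise. IP was made from input, and IP and input of the same number within a line were taken as a pair. Same-numbered libraries deviated from their group means with correlations of 0.27 (EMC6), 0.07 (EMC7) and 0.04 to 0.10 (EMC10), and the pairing rests on the labels.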

Additional observations from a re-analysis of the deposited data

How the results depend on the processing

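The class difference of -0.25 held for members with at least 100 counts (-0.25) and without the paralog pairs (-0.25). It also held with a prior count of 0.5 (-0.25) and without each pair in turn (-0.27 to -0.23). Under library size alone it was -0.28, but a scaling factor moves both class medians of a pair alike, so this value cannot test the difference. The scaling moved the median of all genes and with it both classes: over the mean of the 3 lines the median of all genes was -0.19 with TMM, -0.10 with DESeq2, -0.70 with scaling on ER luminal messages and -1.13 with library size alone, and in EMC6 inputs against the others 0.07, -0.01, 1.20 and 0.37. Relative to that median the cytosolic class was at -0.27, -0.27, -0.28 and -0.27 and the mitochondrial class at -0.02, -0.02, -0.02 and -0.03 from input to IP. A change of scaling moves a class and that median alike, so these near equal values follow from how they are computed.

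With library size alone 76, 78 and 79 cytosolic members fell in the EMC6, EMC7 and EMC10 lines, 40, 69 and 72 mitochondrial members fell and 0 rose, and over the mean 72 mitochondrial members fell and 0 rose; of all genes 45.7%, 63.8% and 75.8% fell in the lines and 77% over the mean. In EMC6 inputs 46 cytosolic members were then higher and 5 lower than in the others, and 38 mitochondrial ones higher and 2 lower (36.3% and 15.4% of all genes). Against EMC7 the counts were 40, 5, 35 and 0 (31% and 13.8% of all genes). Against EMC10 they were 35, 5, 27 and 2 (29.7% and 14.4% of all genes). For EMC6 minus EMC10 3 cytosolic and 3 mitochondrial members were called higher, where 5.21% of all genes were. With scaling on ER luminal messages 65, 77 and 73 cytosolic members fell in the 3 lines, 10, 55 and 44 mitochondrial members fell and 0 rose, and over the mean 66 mitochondrial members fell and 0 rose, where 23.7%, 51.4% and 39.3% of all genes fell in the lines and 61.4% over the mean. In EMC6 inputs 73 cytosolic and 72 mitochondrial members were then higher, 74 and 70 against EMC7 and 72 and 69 against EMC10, and 0 lower. Of all genes 77.4% were then higher, 75% against EMC7 and 73.7% against EMC10. DESeq2 called 13 and 14 cytosolic members lower in the EMC6 and EMC7 lines (3.34% and 5.71% of all genes). It called 1 (RPL41) higher in the EMC7 line and over the mean (20.3% and 24.9% of all genes). Mitochondrial members called lower numbered 0 in the EMC7 and EMC10 lines and 2 over the mean (5.71%, 7.76% and 17.1% of all genes). In EMC6 inputs 7 mitochondrial members were higher against the others and 7 cytosolic ones against EMC10 (7.54% and 5.62% of all genes). With no filter beyond 20 counts 0 mitochondrial members rose in the EMC7 line and 1 over the mean, without bait rows 0 rose in the EMC7 line, and with at least 100 counts 1 cytosolic member (RPL41) rose in the EMC7 line.

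With the replicate block 55, 55 and 68 cytosolic members fell in the 3 lines, 1 (RPL41) rose in the EMC7 line and over the mean, 1 and 4 mitochondrial members fell in the EMC6 and EMC10 lines, and between baits 1 cytosolic member was called for EMC6 minus EMC7 and 1 cytosolic and 1 mitochondrial member for EMC6 minus EMC10. The block moved no other count of calls by over 1.5 times.

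Single named members turned sign under 2 settings, whose construction shifts all genes. With library size alone the changes over the mean of the lines were RPL18 -0.93, RPS28 -0.82, RPL41 -0.71, MRPL32 -0.67, MRPL57 -0.67, MRPL37 -0.65 and MRPS6 -0.26. With scaling on ER luminal messages they were RPL18 -0.50, RPS28 -0.38, RPL41 -0.28, MRPL32 -0.24 and MRPL37 -0.21, and in EMC6 inputs RPLP1 0.030, RPS28 0.12, RPS12 0.29, RPL37A 0.30, RPS29 0.54, MRPL43 0.11, MRPL32 0.46, MRPL4 0.52 and MRPL14 0.63. Of the other values of 53 named results under alternatives that keep all libraries, 318 kept direction and side of the threshold, 13 no longer passed, 14 newly passed and 5 moved.

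Leaving out 1 library at a time gave these ranges. From input to IP in the EMC6 line, 2 to 42 cytosolic members fell and 0 rose, and 0 to 3 mitochondrial members rose and 0 to 2 fell. In the EMC7 line 6 to 39 cytosolic members fell and 0 to 1 rose, and 0 to 1 mitochondrial members rose and 0 to 2 fell. In the EMC10 line 29 to 56 cytosolic members fell and 0 rose, and 0 to 1 mitochondrial members rose and 0 to 3 fell. Over the mean 53 to 68 cytosolic members fell and 0 to 1 rose, and 1 to 3 mitochondrial members rose and 4 to 13 fell. In EMC6 inputs against the others 3 to 26 cytosolic members were higher and 6 to 19 lower, and 8 to 16 mitochondrial members higher and 3 to 6 lower. Against EMC7 the ranges were 2 to 24, 6 to 17, 5 to 10 and 2 to 5, and against EMC10 3 to 23, 6 to 17, 6 to 14 and 3 to 5. Between EMC7 and EMC10 inputs and between baits the counts stayed at 0. Where a group was left with 1 library, that library was assumed to vary like the others.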

Other observations

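Members listed at 0 that are named here lay among other genes at 0. Within 500 kb on either side of the member, in RefSeq coordinates of GRCh38.p14, 27 of 33 other coding genes were at 0 in all 14 libraries around RPS9 on chromosome 19, 26 of 35 around RPS18 and 27 of 31 around MRPS18B, both on chromosome 6. Among members with few counts, 15 of 26 neighbours were at 0 around MRPL23 on chromosome 11 and 16 of 17 around MRPL45 on chromosome 17. Over all coding genes 25.3% were at 0. RPS9 and RPS18 encode small subunit proteins of the cytosolic ribosome that growing cells need, so a 0 in these files is given as listed and not as a level of translation.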
